A study of Mus musculus with 28 samples.

Results

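The gene desert downstream of Gata6 was taken as all restriction fragments with a midpoint on mouse chromosome 18 between 11090637 and 11590000 (mm10) that were read in any of 5 libraries made from the Gata6 promoter. It held 1239 such fragments, of 99194 distinct fragments read in all 13 libraries analysed here. The range begins 37.0 kb from the viewpoint, just past the annotated end of Gata6 at 11085636, and ends 536.4 kb from it, short of the next protein-coding gene, Rbbp8, whose annotation starts at 11633276. Within these 499.4 kb the RefSeq annotation of GRCm38.p6, the assembly of mm10, lists 1 gene, the long non-coding RNA Gm35918, and 0 protein-coding genes, so the label of a gene desert holds. The mirror range lies at equal distances to the other side, from 10517268 to 11016631. It held 1020 fragments and 15 annotated genes, of which 5 are protein-coding (Greb1l, Esco1, Snrpd1, Abhd3 and Mib1).

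The cells were mouse embryonic stem cells (ESC) of the line E14Tg2a, profiled as ESC at day 0 or after 5 days of differentiation into anterior neural progenitor cells (AntNPC). Parts of PE Sox1, a poised enhancer of the neural gene Sox1, had been knocked into the topologically associating domain (TAD) of Gata6. The inserts were its transcription factor binding sites (TFBS), its CpG island (CGI) or both (TFBS+CGI), and the wild type (WT) carried none. The 4 AntNPC libraries (WT, TFBS, CGI and TFBS+CGI) were labelled with the Gata6 promoter as viewpoint. The fifth, the CGI insert in ESC, was labelled with the insertion site as viewpoint, but 83.1% of its reads lay on the promoter fragment. By reads its viewpoint was thus the fragment of the AntNPC libraries; whether its label or its file is right is not known. The label of that library names 2i plus LIF medium, whereas the growth protocol describes serum plus LIF. The sources used here do not state whether each knock-in line was 1 clone, nor where in the domain the insert lies.

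The assay, circular chromosome conformation capture (4C-seq), reads out which fragments of the genome were ligated to 1 chosen fragment, the viewpoint, after chromatin was fixed and cut. Ligation is most frequent close to the viewpoint and falls with distance, and within a TAD it is in general more frequent than across the border of one. Gata6 encodes a zinc-finger transcription factor of endoderm and heart development. Gene deserts beside such developmental genes often hold their distant enhancers. Whether an insert in the domain goes with a different contact profile of the promoter is the question that these libraries address.

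The viewpoint fragment lay at 11053305 to 11053963 in all 5 libraries and took 78.1% to 91.0% of the reads. Totals ran from 1023252 to 7429563 reads, of which 85.2% to 95.2% lay on chromosome 18. Values below are shares of local reads, that is, of reads within 1 Mb of the viewpoint with 10 kb on each side left out. Local reads numbered 110891 in WT, 193257 in TFBS, 67564 in CGI, 156021 in TFBS+CGI and 61773 in CGI ESC. There was 1 library per condition, so no test between conditions was possible and no p-value is given. The 95% intervals take each read as a separate count and cover counting error only, not variation between samples. PCR copies could not be told from separate molecules, so the intervals may be too narrow even for that. Every pair of libraries shared a smaller part of its desert fragments at 10 reads or more than at any read. Overlap was not compared with that outside the desert. Of the 450 desert fragments read in WT, 415 were also read in TFBS, and of the 341 in CGI, 288 were also read in TFBS+CGI. At 10 reads or more in both libraries these overlaps fell to 74 of 137 and 36 of 200. Fragments with at least 10 reads are therefore counted beside the reads.

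The desert held more of the local reads in the libraries with a TFBS or a CGI insert than in WT. In AntNPC its share was 28.4% in WT (95% Wilson interval 28.2% to 28.7%). It was 43.0% with TFBS (42.8% to 43.2%), 42.5% with CGI (42.1% to 42.9%) and 34.4% with TFBS+CGI (34.2% to 34.7%). The TFBS and CGI libraries thus stood together, WT stood lowest, and the library with both inserts lay between them. In ESC with the CGI insert the share was 31.7% (31.4% to 32.1%), below that of the CGI insert in AntNPC. The reads behind these shares numbered 31536, 83071, 28718, 53738 and 19600 in the order WT, TFBS, CGI, TFBS+CGI and CGI ESC.

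By share of local reads the mirror range was lower with the TFBS and the CGI insert than in WT. Desert and mirror are shares of the same local reads, so a higher share of one leaves less for the other. The mirror range held 35.1% of local reads in WT, 28.5% with TFBS, 30.0% with CGI, 35.8% with TFBS+CGI and 33.5% in CGI ESC. The desert therefore held less than its mirror in WT, with a log2 ratio of desert over mirror of -0.30 (exact conditional interval -0.33 to -0.28). It held more with TFBS, at 0.59 (0.58 to 0.61), and with CGI, at 0.50 (0.48 to 0.53). The sides were nearly level with TFBS+CGI, at -0.055 (-0.072 to -0.038), and in CGI ESC, at -0.079 (-0.11 to -0.050). The sign in WT depended on the measure: counted as fragments with at least 10 reads, the desert had 137 and the mirror 126, and the log2 ratio was 0.12.

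The 3 comparisons with WT share the WT library and are given side by side. On the log2 scale the share of the desert differed from WT by 0.60 with TFBS (0.58 to 0.61), by 0.58 with CGI (0.56 to 0.60) and by 0.28 with TFBS+CGI (0.26 to 0.30). As ratios these are 1.51, 1.49 and 1.21. The mirror range gave -0.30, -0.23 and 0.028 for the same pairs. The CGI insert in ESC differed from the CGI insert in AntNPC by -0.42 (-0.45 to -0.40), a ratio of 0.746, while the mirror range gave 0.16. Over fragments with at least 10 reads in place of reads, the log2 differences from WT were smaller, at 0.33, 0.22 and 0.053. Over fragments with any read, the CGI and TFBS+CGI differences from WT turned to -0.053 and -0.12.

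How the reads were spread over fragments also differed between the libraries. In WT the tallest fragment held 6.18% of the reads of the desert and the 10 tallest held 29.7%. In TFBS these figures were 0.701% and 6.23%. CGI, TFBS+CGI and CGI ESC lay between, with 18.9%, 20.0% and 12.2% on the 10 tallest. A desert fragment that was read had a median of 3 reads in WT, 50 in TFBS, 26 in CGI, 3 in TFBS+CGI and 20.5 in CGI ESC. In WT and TFBS+CGI, the libraries with the most total reads, most desert fragments had 1 to 9 reads. In TFBS, CGI and CGI ESC most had at least 10. Fragments with at least 100 reads numbered 80 in WT, 304 in TFBS, 102 in CGI, 138 in TFBS+CGI and 46 in CGI ESC. The number of fragments with at least 10 reads was 137, 744, 200, 195 and 320 in the same order. As shares of all local fragments with at least 10 reads these were 35.1% (30.6% to 40.0%), 44.3% (41.9% to 46.7%), 41.0% (36.7% to 45.4%), 36.4% (32.5% to 40.6%) and 33.3% (30.4% to 36.3%). These intervals, and those of fragment counts in the bands below, take the fragments of 1 library as independent. They cover counting only and do not compare conditions. The part of the differences in read spread and fragment number in the shares of the desert was not tested.

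**Figure D1:**
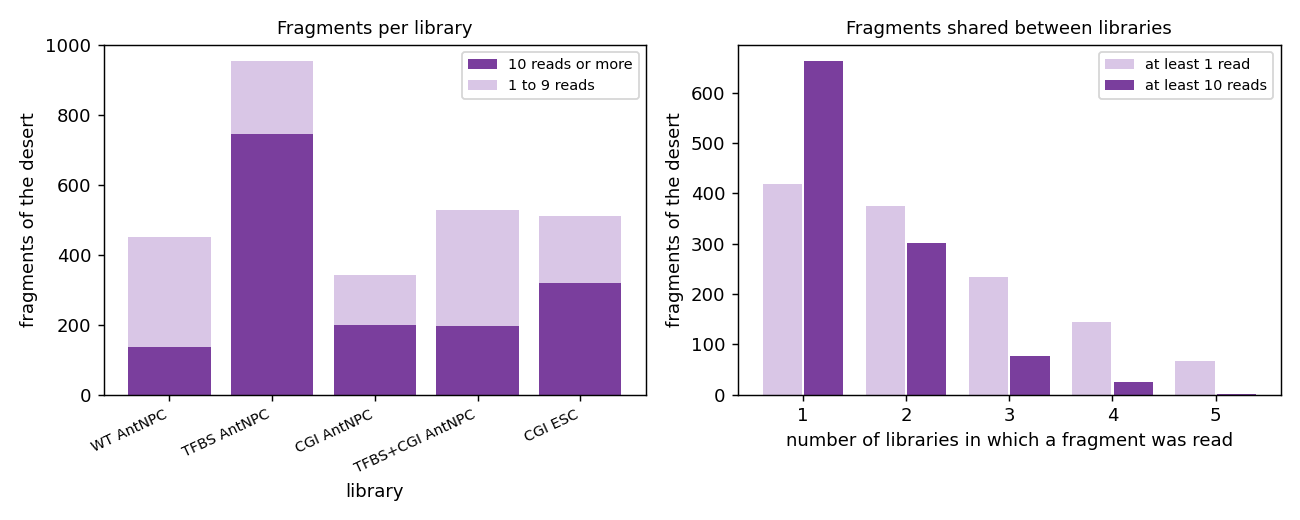
Left, number of desert fragments read in each library, split at 10 reads. TFBS had 744 fragments with at least 10 reads and WT 137. Right, number of desert fragments by the number of libraries in which they were read, for any read and for at least 10 reads; 662 fragments reached 10 reads in 1 library and 1 fragment did so in all 5.

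The desert and its mirror differed in how the signal fell with distance. Counted in bands of 100 kb, the mirror side was higher than the desert from 37 to 137 kb in 5 of 5 libraries, and from 137 to 237 kb in 4 of 5. In the first band TFBS was nearly level, at 11.4% against 11.6%, and with capped fragments, without the tallest fragment, or counted as fragments, 1 library was higher on the desert side. From 237 to 337 kb the desert was higher in 5 of 5, and in each of the last 2 bands in 4 of 5; from 337 to 437 kb it was 5 of 5 counted as fragments. On the mirror side the share fell from the band before 237 kb to the band after it in every library. It fell in WT from 13.5% to 2.59%, in TFBS from 9.88% to 3.89% and in CGI ESC from 9.11% to 3.49%. Mib1, a gene for an E3 ubiquitin ligase of Notch signalling, is annotated up to 10818578, or 235 kb from the viewpoint. The bands do not place the drop at that point. In 10-kb mirror windows WT fell from 3.32% at 217 to 227 kb to 0.502% at 227 to 237 kb. TFBS held 0.692%, 0.440% and 0.718% in the windows from 227 to 257 kb. The desert showed no such drop between these bands. Its share went from 5.81% to 8.58% in WT, from 10.5% to 9.54% in TFBS, from 6.19% to 11.6% in CGI, from 6.98% to 7.78% in TFBS+CGI and from 6.55% to 5.54% in CGI ESC.

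**Figure D2:**
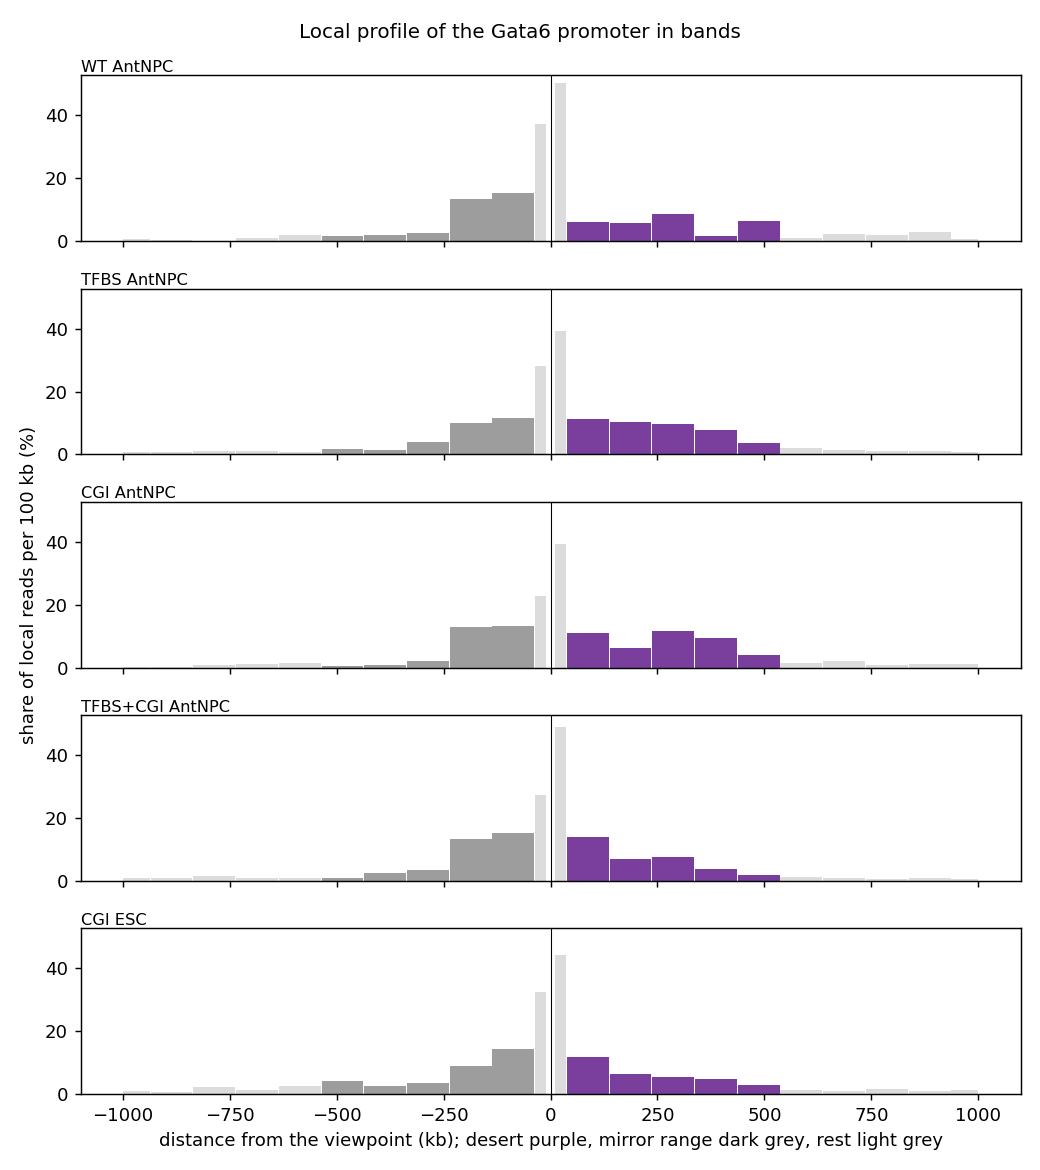
Share of local reads per 100 kb (%, linear axis) against distance from the viewpoint (kb, positive towards the desert) in the 5 libraries, with 10 kb on each side of the viewpoint left out. The mirror side is lower in the band after 237 kb than in the band before it in all 5 libraries. The desert (purple) keeps 5.54% to 11.6% between 237 and 337 kb.

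Divided at 237 kb, a split chosen after the bands were seen, the desert lay below its mirror near the viewpoint and above it farther away. From 37 to 237 kb the desert held 11.8% in WT, 21.9% with TFBS, 17.4% with CGI, 20.8% with TFBS+CGI and 18.4% in CGI ESC, against 28.9%, 21.4%, 26.4%, 28.8% and 23.4% in the mirror. Only TFBS was higher on the desert side there. From 237 to 536.4 kb the desert held 16.6%, 21.1%, 25.2%, 13.6% and 13.3%, against 6.26%, 7.10%, 3.65%, 7.00% and 10.2% in the mirror. All 5 libraries were higher on the desert side in this range. The ratio of desert to mirror was 2.65 in WT, 2.97 with TFBS, 6.89 with CGI, 1.94 with TFBS+CGI and 1.31 in CGI ESC. Without the tallest fragment of each side the ratios were 2.69, 3.03, 7.57, 2.04 and 1.31. Fragments with at least 10 reads numbered 69, 382, 102, 87 and 149 in the farther desert and 32, 157, 29, 47 and 116 in its mirror. The excess of the farther desert was thus present in WT without an insert, and it was lowest in ESC.

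**Figure D3:**
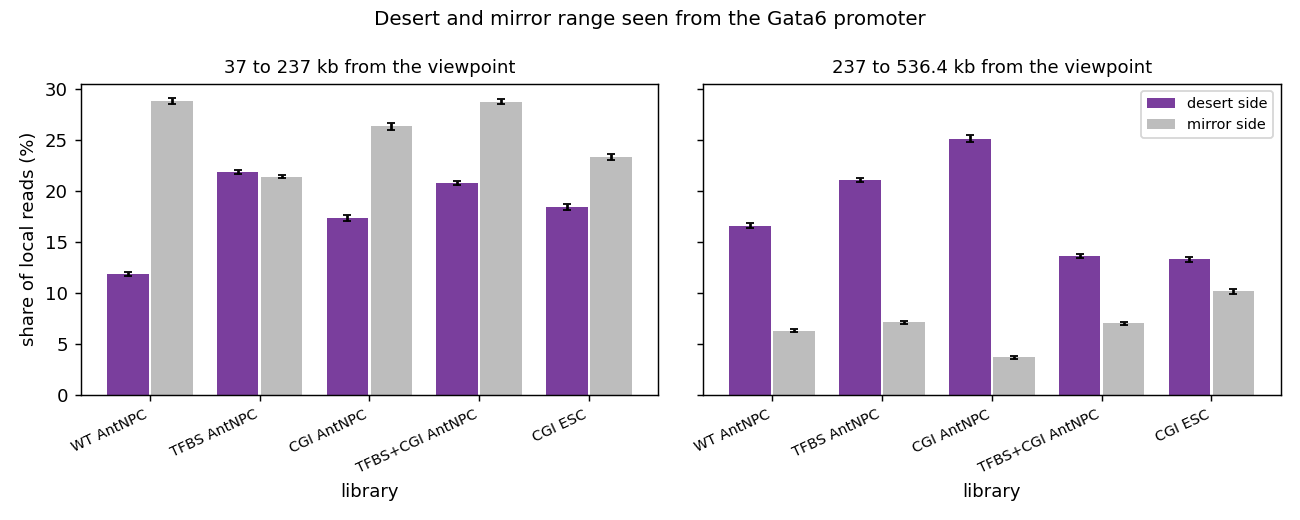
Share of local reads (%) of the desert (purple) and of the mirror range (grey) from 37 to 237 kb (left) and from 237 to 536.4 kb (right), per library; error bars are 95% Wilson intervals and cover counting error only. The desert is higher in 1 of 5 libraries in the nearer part and in 5 of 5 in the farther part.

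By reads, the difference between the insert libraries and WT was not even along the desert. In the first band, from 37 to 137 kb, WT had 6.02% and the others 11.4% with TFBS, 11.2% with CGI, 13.9% with TFBS+CGI and 11.9% in CGI ESC. The log2 differences from WT were 0.92 (0.88 to 0.96), 0.89 (0.84 to 0.94) and 1.20 (1.16 to 1.24) for TFBS, CGI and TFBS+CGI. All 3 insert libraries of AntNPC were high in this band by reads. Counted as fragments with at least 10 reads the differences were much smaller, at 0.14, 0.17 and 0.35, with intervals that include 0. From 137 to 237 kb only TFBS stood apart from WT by a similar amount, at 0.85 (0.81 to 0.89), whereas CGI gave 0.092 (0.036 to 0.15) and TFBS+CGI 0.27 (0.22 to 0.31). From 237 to 337 kb the differences were small, at 0.15 with TFBS, 0.44 with CGI and -0.14 with TFBS+CGI. As fragments with at least 10 reads they were 0.50, 0.24 and 0.0079 from 137 to 237 kb and 0.58, 0.55 and 0.27 from 237 to 337 kb, again with intervals that include 0.

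By reads, the fourth band, from 337 to 437 kb, was the one that differed most from WT with TFBS and with CGI. WT had 1.54% of local reads there (1704 reads), and TFBS had 7.88%, CGI 9.58%, TFBS+CGI 3.92% and CGI ESC 4.88%. The log2 differences from WT were 2.36 (2.29 to 2.43), 2.64 (2.56 to 2.72) and 1.35 (1.27 to 1.43). Counted as fragments with at least 10 reads they were 0.67 (0.0043 to 1.41), 0.53 (-0.27 to 1.38) and 0.24 (-0.59 to 1.098), and over fragments with any read 0.075, -0.011 and -0.22. The size of the difference in this band therefore depended on the measure, and with CGI and TFBS+CGI its sign did too. In the last band, from 437 to 536.4 kb, the order turned. WT had 6.49% against 3.69% with TFBS, 3.93% with CGI, 1.92% with TFBS+CGI and 2.88% in CGI ESC, and the log2 differences from WT were -0.81, -0.72 and -1.76, so that TFBS+CGI differed most from WT here. As fragments with at least 10 reads they were -0.26 (-0.91 to 0.44), -0.51 (-1.40 to 0.38) and -1.19 (-2.22 to -0.21). By reads WT was thus lowest of the 5 libraries in the fourth band and highest in the fifth.

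Between ESC and AntNPC, the CGI libraries were close near the promoter and apart farther out by reads. They also differ in labelled viewpoint, so cell state and label cannot be told apart. From 37 to 137 kb the log2 ratio of ESC over AntNPC was 0.090 (0.044 to 0.14), and from 137 to 237 kb it was 0.082 (0.019 to 0.14). From 237 to 337 kb it was -1.07 (-1.13 to -1.01), with 5.54% in ESC and 11.6% in AntNPC. From 337 to 437 kb it was -0.97 (-1.04 to -0.91), and in the last band -0.45 (-0.54 to -0.36). By reads the lower share of the whole desert in ESC thus lay beyond 237 kb. Counted as fragments with at least 10 reads the 5 bands gave -0.13, -0.23, -0.42, -0.47 and -0.39, each with an interval that includes 0.

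In windows of 10 kb the profile was uneven in every library, and least so in TFBS. The median share of a desert window was 0.437% in WT, 0.781% with TFBS, 0.732% with CGI, 0.521% with TFBS+CGI and 0.576% in CGI ESC. The coefficient of variation over the 50 windows was 1.21, 0.605, 0.907, 1.10 and 0.854 in that order. Over the 5 libraries this order was the reverse of that of the number of fragments with at least 10 reads, from WT with the fewest to TFBS with the most, and the part of fragment number in it was not tested.

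The highest window of WT and of CGI was the same one. It lay at 11350637 to 11360636, 297 to 307 kb from the viewpoint, and held 4.22% of local reads in WT (4680 reads) and 3.92% in CGI (2649 reads). A single fragment carried much of it in each: without its tallest fragment the window held 2.46% in WT and 2.34% in CGI. These tallest fragments were not the same. In WT it was 11359412 to 11359501, with 1948 reads there, 263 in TFBS, 0 in CGI and 1 each in TFBS+CGI and CGI ESC. In CGI it was 11355220 to 11355310, with 1068 reads there, 574 in TFBS+CGI, 410 in TFBS and 2 each in WT and CGI ESC. The window held 1.41% with TFBS, 1.21% with TFBS+CGI and 0.282% in CGI ESC.

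The 5 windows around it, from 267 to 317 kb (11320637 to 11370636), formed a stretch that was higher than both neighbouring stretches of 50 kb in all 5 libraries. It was chosen after the windows were seen and is given as a description. It held 6.47% in WT, 7.55% with TFBS, 9.75% with CGI, 6.18% with TFBS+CGI and 3.59% in CGI ESC. The 50 kb before it held 3.003%, 2.54%, 2.49%, 1.86% and 2.30%, and the 50 kb after it 0.670%, 3.10%, 1.99%, 1.93% and 2.62%. The same distances in the mirror range held 0.987%, 1.89%, 1.68%, 2.10% and 1.36%. Without its tallest fragment the stretch still held 4.71%, 7.30%, 8.17%, 5.64% and 3.17%. Fragments with at least 10 reads numbered 18, 101, 34, 31 and 38 in the stretch and 8, 52, 14, 9 and 25 in the 50 kb before it. The rise was smallest in CGI ESC, where the stretch exceeded the 50 kb after it by less than 1 percentage point.

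**Figure D4:**
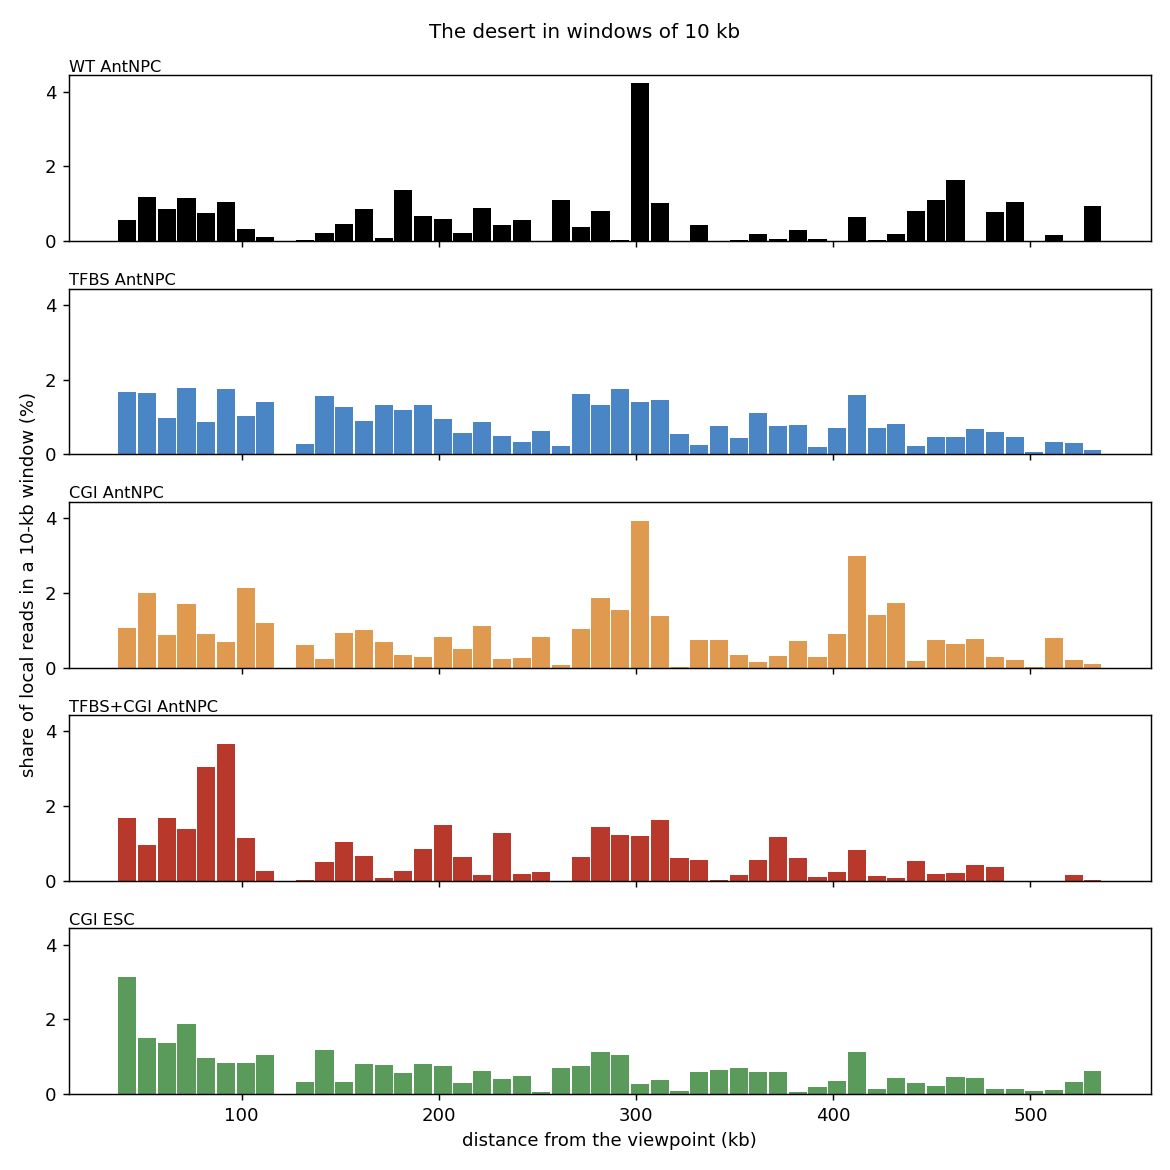
Share of local reads (%) in each 10-kb window of the desert against distance from the viewpoint (kb), 1 panel per library on a common scale. WT and CGI peak at 297 to 307 kb (4.22% and 3.92%), TFBS+CGI at 87 to 97 kb (3.65%) and CGI ESC in the first window (3.13%); no TFBS window exceeds 1.78%.

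TFBS+CGI had its highest windows much nearer the promoter. The window at 11140637 to 11150636, 87 to 97 kb away, held 3.65% (5694 reads), and the one before it, from 11130637, held 3.04% (4746 reads). In WT these windows held 1.04% and 0.758%, which gives log2 differences of 1.82 (1.73 to 1.91) and 2.00 (1.90 to 2.111). With TFBS they held 1.75% and 0.870%, with CGI 0.676% and 0.898%, and in CGI ESC 0.843% and 0.966%. The pair was thus highest with TFBS+CGI. The first of these windows rested in large part on the fragment 11148213 to 11148862, with 2970 reads in TFBS+CGI, 332 in TFBS, 26 in CGI, 15 in CGI ESC and 2 in WT, and it held 1.75% without it.

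In CGI ESC the highest window was the first of the desert, from 11090637, with 3.13%, against 0.555% in WT, 1.68% with TFBS, 1.07% with CGI and 1.69% with TFBS+CGI. The next highest in ESC were 11120637 (1.87%), 11100637 (1.497%), 11110637 (1.36%) and 11190637 (1.18%), and all 5 lie within 147 kb of the viewpoint. TFBS had no window above 1.78%, its value at 11120637 to 11130636. In CGI the second highest window was 11460637 to 11470636, 407 to 417 kb away, with 2.98% there, 0.659% in WT, 1.60% with TFBS, 0.822% with TFBS+CGI and 1.12% in CGI ESC. The second highest window of WT was 11510637, with 1.63%.

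Few windows were high in all libraries. The window at 11120637 to 11130636, 67 to 77 kb away, was the only one among the 10 highest of the desert in all 5, with 1.15% in WT, 1.78% with TFBS, 1.71% with CGI, 1.38% with TFBS+CGI and 1.87% in CGI ESC. Another 3 windows were among the 10 highest in 4 libraries, and 26 of 50 in none. At the other end, the window at 11170637 to 11180636, 117 to 127 kb away, had 1 read in WT, 3 with TFBS, 0 with CGI, 1 with TFBS+CGI and 2 in CGI ESC. For CGI, 0 of 67564 local reads allows a share of up to 0.0044%. Of 196 windows within 1 Mb, 2 had at most 3 reads in every library, and this was the only one of them in the desert. It overlaps the longest stretch of the desert with no fragment read in any library, 11176656 to 11182783 (6128 bp), and the next longest, 11186560 to 11191594 (5035 bp), lies close by. Which fragments of that stretch could be amplified or mapped was not examined.

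Between libraries a window was compared where at least 20 reads lay in 1 of the pair, and counted as higher or lower where the ratio of shares was at least 2-fold, with a floor of 3 reads. Changes of this size were common over the whole local range, so the counts are read against it. With TFBS, 27 of 49 desert windows were higher than in WT (55.1%), against 48.9% of all local windows, and 7 were lower (14.3%), against 21.3%. With CGI, 22 of 47 were higher (46.8%), against 35.5%, and 9 were lower (19.1%), against 37.5%. With TFBS+CGI, 21 of 48 were higher (43.8%), against 38.4%, and 12 were lower (25%), against 33.3%. The desert therefore had somewhat more windows called higher, and fewer called lower, than the local range that contains it, and with TFBS and TFBS+CGI the shares higher were near the background. The median log2 ratio of the desert windows was 1.28 with TFBS, 0.78 with CGI and 0.81 with TFBS+CGI, against 0.76, 0.087 and 0.27 over all windows.

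For CGI in ESC over AntNPC the background leaned the other way. In the desert 9 of 49 windows were higher in ESC (18.4%), against 44.2% of all local windows, and 12 were lower (24.5%), against 19.9%. The median log2 ratio was -0.36 in the desert and 0.67 over all windows. In the mirror range 26 of 48 windows were higher in ESC and 7 were lower.

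**Figure D5:**
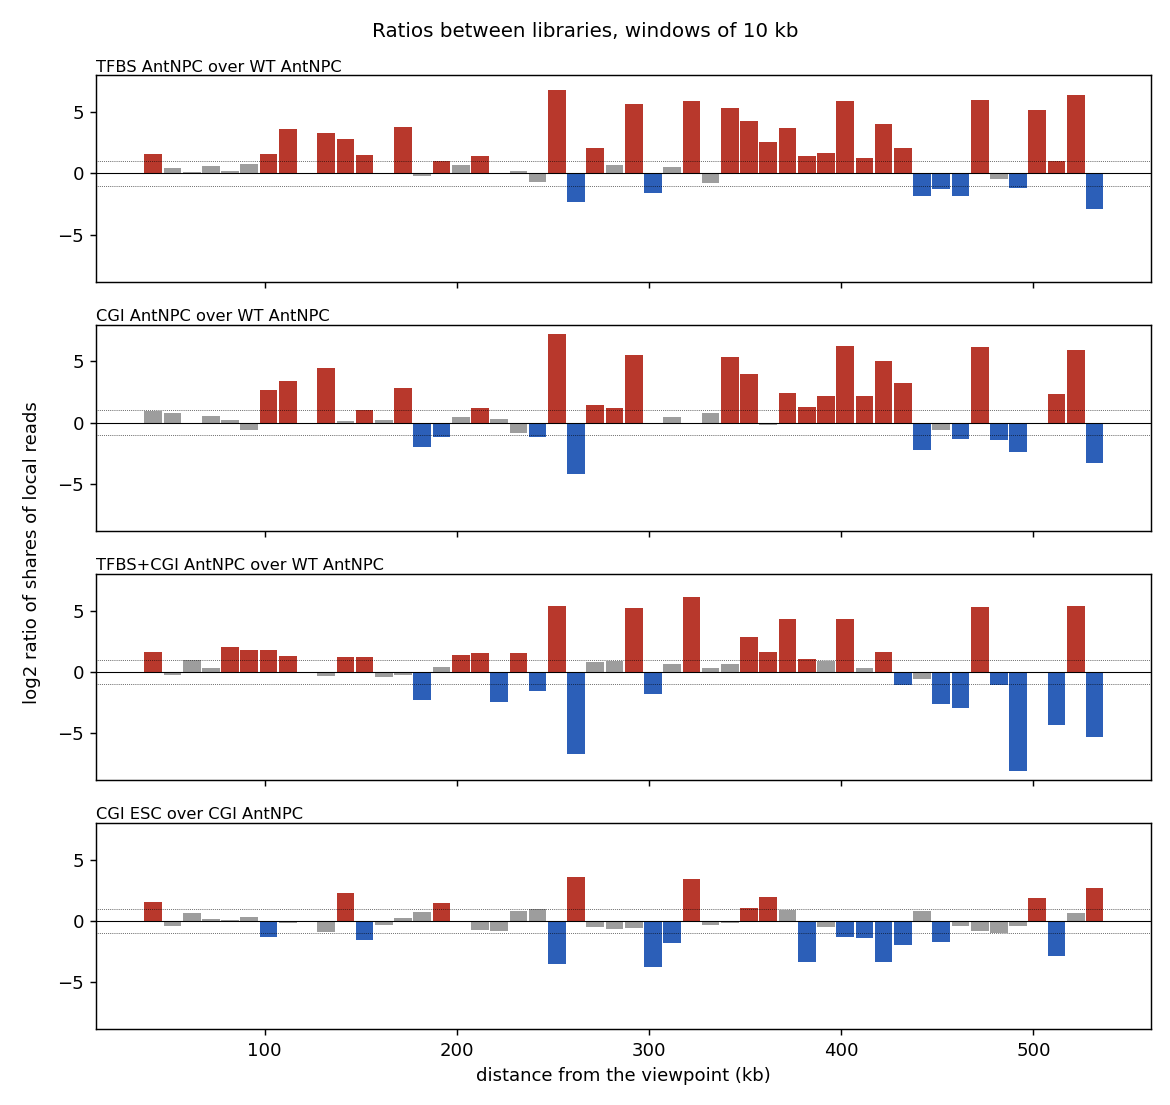
Log2 ratio of shares of local reads in each 10-kb window of the desert against distance from the viewpoint (kb) for the 4 pairs of libraries; red and blue bars reach 2-fold (dotted lines), grey bars do not, and windows with under 20 reads in both libraries are left out. The first 3 panels share the WT library. Of 49, 47, 48 and 49 compared windows, 27, 22, 21 and 9 are higher by at least 2-fold (55.1%, 46.8%, 43.8% and 18.4%). Over all local windows the shares higher are 48.9%, 35.5%, 38.4% and 44.2%.

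The largest ratios over WT lay in windows with few reads in WT. The window at 11300637 to 11310636, 247 to 257 kb away, had 6 reads in WT, 1202 with TFBS, 556 with CGI and 360 with TFBS+CGI, with log2 differences from WT of 6.84 (5.72 to 8.29), 7.25 (6.12 to 8.70) and 5.41 (4.28 to 6.87). The window next to it, at 11310637, went the other way, with 1222 reads in WT, 412 with TFBS, 41 with CGI and 16 with TFBS+CGI, and log2 differences of -2.37, -4.18 and -6.75. In WT 1171 of those 1222 reads lay on 1 fragment, 11314246 to 11314407, which had 11 reads in TFBS, 2 in TFBS+CGI and 0 in CGI. Neighbouring windows thus gave opposite ratios, and the WT value of the second rested on 1 fragment. The last window, from 11580637, was also lower with each insert, with 1051 reads in WT against 241, 64 and 37, and log2 differences of -2.93, -3.32 and -5.32.

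Other windows named for their ratio to WT lay beyond 300 kb. With TFBS they were 11570637 (580 reads against 4 in WT) and 11520637 (1309 against 12) on the higher side, and 11490637 (425 against 883) on the lower. With CGI they were 11450637 (606 against 13), 11520637 (522 against 12) and, lower, 11540637 (132 against 1161). With TFBS+CGI they were 11370637 (965 against 10), 11570637 (238 against 4) and, lower, 11540637 (6 against 1161). Each of the higher windows had 13 reads or fewer in WT.

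Between ESC and AntNPC with the CGI insert, the lower windows were 11350637, 11300637 and 11430637. The first had 174 reads in ESC against 2649 in AntNPC (log2 -3.80, -4.03 to -3.58), the next 45 against 556 (-3.50) and the last 43 against 480 (-3.35). The higher ones were 11310637, with 438 against 41 reads (log2 3.55), 11370637, with 58 against 6 (3.40), and 11580637, with 382 against 64 (2.71). The window at 11350637 was the highest desert window in AntNPC with CGI. Its ratio was the lowest by reads, but with capped fragments it was -3.29 against -3.48 for 11300637, and without fragments under 10 reads -3.91 against -3.92.

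Single fragments of the desert were rarely shared at high read numbers. Fragment sharing was not compared with the mirror range or the other local fragments, so it is not shown to be particular to the desert. Of the 1239 fragments, 418 were read in 1 library, 375 in 2, 234 in 3, 145 in 4 and 67 in all 5. Of the 1065 that reached 10 reads in any library, 662 did so in 1 library, 301 in 2, 77 in 3, 24 in 4 and 1 in all 5. That 1 fragment was 11332180 to 11332648, with 410 reads in WT, 152 in TFBS, 338 in CGI, 66 in TFBS+CGI and 168 in CGI ESC, and it lies in the stretch from 267 to 317 kb. Of the 25 fragments with at least 10 reads in 4 libraries or more, 16 lay between 37 and 137 kb, where 261 of the 1065 lay, and 0 lay beyond 437 kb, where 150 of the 1065 lay.

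The 5 tallest fragments of WT reached 10 reads in at most 2 libraries, whereas some of the 5 tallest of each other library did so in 3 or 4. In WT, after 11359412 and 11314246, came 11502147 to 11502354 with 1011 reads, 11513400 to 11513473 with 993 and 11279617 to 11279947 with 757, and none of these 3 had more than 11 reads in another library. In TFBS the tallest were 11121325 to 11121389 and 11134385 to 11134698, with 582 reads each; the second also had 499 reads in TFBS+CGI and 191 in CGI ESC. In CGI they were, after 11355220, 11486613 to 11486768 with 670 reads and 11473283 to 11473829 with 647, and TFBS had 412 and 203 reads on these. In TFBS+CGI the fragment 11093021 to 11093074 followed with 1251 reads, where TFBS had 364 and CGI ESC 146. In CGI ESC the tallest was 11196851 to 11196899 with 335 reads, where TFBS had 410 and CGI 0. The fragment 11096555 to 11098291, 1737 bp long, was next in ESC with 280 reads, and it had 423 in TFBS, 193 in CGI, 651 in TFBS+CGI and 5 in WT.

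Fragment length went with sharing. Members had a median length of 168 bp (quartiles 78 and 321.5), close to 174.5 bp in the mirror range. Fragments read in 1, 2, 3, 4 and all 5 libraries had medians of 147, 146, 191, 194 and 302 bp. At 10 reads or more, those in 1 library had 147 bp and those in 2 or more 198 bp. By any read, only desert fragments read in 3 libraries or more were thus longer by median, and the part of length in the recurrence was not tested.

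Gm35918, the annotated gene in the desert, lies at 11399652 to 11401895, 346 kb from the viewpoint, in the fourth band. Its function is not described in the annotation used here. Its span with 5 kb on each side held 0.032% of local reads in WT (36 reads, 0.023% to 0.045%), 0.687% with TFBS (1327 reads), 0.787% with CGI (532 reads), 0.015% with TFBS+CGI (23 reads) and 0.966% in CGI ESC (597 reads). At the mean of the desert per base the same span would hold 0.697%, 1.05%, 1.04%, 0.845% and 0.778%. It was thus above the mean of the desert in CGI ESC only, and far below it in WT and TFBS+CGI. That mean takes no account of distance. The 100 kb of the fourth band as a whole held 1.54% in WT and 3.92% with TFBS+CGI, so part of the gap belongs to the band and not to the gene span.

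The desert did not begin with a step common to all libraries. In the last 10 kb before the start the share was 3.82% in WT, 1.61% with TFBS, 2.93% with CGI, 1.70% with TFBS+CGI and 2.88% in CGI ESC, and in the first 10 kb inside it was 0.555%, 1.68%, 1.07%, 1.69% and 3.13%. WT and CGI fell across this border, and the other 3 libraries stayed within 0.3 percentage points. Past the far end, from 536.4 to 636.4 kb, the share was 0.991%, 1.97%, 1.54%, 1.28% and 1.24%, below the last band of the desert in all 5 libraries. In the 10 kb on each side of that end, however, the share fell outwards in WT and CGI ESC and rose in the other 3 libraries. The range from 10 to 37 kb, which holds the body of Gata6, had 13.6%, 10.6%, 10.6%, 13.2% and 12.0% on the desert side, above the mirror side in 5 of 5 libraries.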

How the data were processed

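The authors deposited 1 file per library with a value in RPM per restriction fragment, and the submitters' processing notes name HISAT2 and mm10; read filters and the HISAT2 version were not stated. All RPM values (100%) were whole multiples of the smallest value of the library within 0.1 reads, so reads were recovered by division. A count test on these reads was not run, because each condition has 1 library. Fragments were placed by their midpoint. Shares have Wilson intervals and log2 ratios exact conditional (Clopper-Pearson) intervals, both at 95%. The 10-kb windows start at the first base of the desert, and the last is 9.36 kb. The calculation behind the window calls was checked on simulated counts, which bears on the code and not on the calls. The text names windows and fragments from among the 5 highest of each library, not all of them. It also names the 3 windows with the largest ratio each way and the gene inside. Members, bands and lists were chosen with earlier results of these data known. Alternatives were 25 kb left out, all reads of chromosome 18, capped or removed tall fragments, fragments in place of reads, fragments under 10 reads left out, the deposited RPM, and other window grids. Gene positions came from a RefSeq table of GRCm38.p6, and no sequence was used. The 28 listed samples gave 13 libraries with files; the others were not analysed here. Python 3.11.15, NumPy 2.4.6, pandas 2.3.3, SciPy 1.17.1 and matplotlib 3.10.9 were used.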

Additional observations from a re-analysis of the deposited data

Results flagged for a closer look

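Libraries of the other viewpoints, which lie on other chromosomes, held 0 to 35 reads of the desert in 7 of 8 cases. The eighth, the PE Six3 viewpoint in WT, held 3163 reads on 7 fragments, of which 3036 lay on the fragment 11196904 to 11197145. That fragment ranked 48 of 8256 fragments on other chromosomes in its library, where the highest had 9245 reads, and it held 26 reads in CGI ESC and 0 in the 4 AntNPC libraries from Gata6.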

How the results depend on the processing

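No paired analysis was possible because each condition has 1 library and the labels carry no replicate numbers. Values are given in the order WT, TFBS, CGI, TFBS+CGI and CGI ESC, then log2 differences from WT for TFBS, CGI and TFBS+CGI, then CGI ESC over AntNPC. With 25 kb left out the shares of the desert were 33.6%, 49.1%, 47.7%, 39.8% and 36.5%, and the differences 0.55, 0.51, 0.24 and -0.39. As shares of chromosome 18 they were 16.6%, 30.02%, 26.9%, 24.9% and 21.7%, and 0.85, 0.69, 0.58 and -0.31. With tall fragments capped they were 30.2%, 44.6%, 42.1%, 34.7% and 32.7%, and 0.56, 0.48, 0.20 and -0.36, with desert over mirror at -0.18, 0.64, 0.47 and -0.12 in AntNPC. Without the tallest fragments the share was 27.8% for WT, 41.9% for CGI and 33.4% for TFBS+CGI, TFBS over WT was 0.63, and desert over mirror was 0.61 with TFBS and -0.10 with TFBS+CGI. Without fragments under 10 reads WT had 28.2%. Over fragments with any read the shares were 41.3%, 42.7%, 39.8%, 37.98% and 34.2%. Desert over mirror turned to 0.43 in WT and 0.14 with TFBS+CGI, and was 0.50 with TFBS and 0.19 with CGI. TFBS over WT was 0.048, CGI and TFBS+CGI over WT turned to -0.053 and -0.12, and ESC over AntNPC was -0.22. Over fragments with at least 10 reads, added after the data were seen, the shares were 35.1%, 44.3%, 41.0%, 36.4% and 33.3%, desert over mirror turned to 0.12 in WT and was 0.31, -0.015 and -0.11 in CGI, TFBS+CGI and CGI ESC, and the differences were 0.33, 0.22, 0.053 and -0.30. On the deposited RPM, which carry the differing share of local reads, the differences were 2.59, 1.31 and 0.66, and ESC over AntNPC turned to 0.75. Of all reads of the library, the mirror range held 38934 of 6874974 in WT, 55144 of 3000576 with TFBS and 20289 of 2523331 with CGI. On that scale the mirror range was thus higher with TFBS and with CGI than in WT. Windows higher and lower by 2-fold on RPM numbered 42 and 0 with TFBS and 22 and 5 in ESC over AntNPC, and 5 were lower with CGI. Window 11490637 with TFBS turned to 0.14. In 20-kb windows the counts higher and lower were 11 and 2, 8 and 4, 9 and 6, and 3 and 5. The counts on RPM and in 20-kb windows stand without the share over all local windows, so they show nothing particular to the desert. Of these values for the whole desert and its window counts, 61 stayed within their interval or within 1.5 times, 75 moved and 6 turned. The cause was not tested, beyond the smaller number of windows at 20 kb. Ratios of single bands were also taken on other measures, chosen after seeing the data, and changed sign in 16 cases. With capped fragments these were band 2 with CGI over WT (-0.0067) and band 3 with TFBS+CGI over WT (0.040), and without the tallest fragments band 3 with TFBS+CGI (0.17) and band 2 in ESC over AntNPC (-0.063). Over fragments with any read they were band 2 with TFBS, CGI and TFBS+CGI (-0.0093, -0.21 and -0.22), band 3 with CGI (-0.12), band 4 with CGI and TFBS+CGI (-0.011 and -0.22), band 5 with TFBS (0.065), and ESC over AntNPC in bands 1 and 2 (-0.15 and -0.082). Over fragments with at least 10 reads they were band 3 with TFBS+CGI (0.27), and ESC over AntNPC in bands 1 and 2 (-0.13 and -0.23). The desert stayed above its mirror beyond 237 kb in 5 of 5 libraries under the alternatives run for tall fragments, low reads and fragments. Reads per fragment limit what single windows can show.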
